A study of Rattus norvegicus with 6 samples.

Results

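The natriuretic peptide genes and their receptor genes were followed in cultured rat cardiac fibroblasts that received water or pertussis toxin (PTX). The 5 genes are Nppa, which encodes the precursor of atrial natriuretic peptide, Nppb, which encodes that of brain natriuretic peptide, and the receptor genes Npr1, Npr2 and Npr3. Every probe set that the platform annotation ties to 1 of these genes, by its present or an older symbol, and to no other gene was taken. This gave 11 probe sets of 5 genes, out of 4736 genes named on the array by probe sets with 1 symbol: 4 for Nppa, 1 for Nppb, 3 for Npr1, 1 for Npr2 and 2 for Npr3.

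The cells were primary cultures from ventricles of Sprague-Dawley rats 1 to 2 days old, with the strain of PTX replicate 3 written as SD. Of these, 3 control cultures received water and 3 received the toxin for 24 h, and each was read on its own 1-colour Affymetrix array. PTX inactivates the inhibitory G proteins Gi and Go, so that receptors can no longer signal through them; the labels give no dose. No source states that the cultures of a group came from separate isolations, so the spread behind the p-values is that of these 6 cultures and could be technical.

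Cardiac muscle cells make both peptides as prohormones and release them when stretched. Npr1 and Npr2 are membrane guanylyl cyclases: Npr1 answers atrial and brain natriuretic peptide, Npr2 answers C-type natriuretic peptide, and both raise cyclic GMP inside the cell. Npr3 has no cyclase. It takes up the peptides for degradation, and its short cytoplasmic tail can act through inhibitory G proteins. In the ventricle Nppa is active before birth and declines afterwards, and fibroblasts are known as target cells of the peptides rather than as their main source.

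Nppb and Nppa lie next to each other in RefSeq's annotation of the rat assembly GRCr8, with 0 genes annotated between them. The sequences upstream of their start sites are shown because these were the brightest of the 5 genes on every array. Capitals mark matches, on either strand, to TATAAA, the letters of a TATA box, to the GATA factor motif in its forms TGATAA or else AGATAA, and to the M-CAT core CATTCC. The TATAAA match of Nppa begins at position -39 from the start site, on the plus strand. In Nppb the TATAAA letters were found on the minus strand at position -208, and the M-CAT core also on the minus strand, at -131. The motif TNAAGTG, a form bound by Nkx2-5, was searched as well, and no marked match overlapped another.
Nppa, chr5:163711934-163712183, plus strand: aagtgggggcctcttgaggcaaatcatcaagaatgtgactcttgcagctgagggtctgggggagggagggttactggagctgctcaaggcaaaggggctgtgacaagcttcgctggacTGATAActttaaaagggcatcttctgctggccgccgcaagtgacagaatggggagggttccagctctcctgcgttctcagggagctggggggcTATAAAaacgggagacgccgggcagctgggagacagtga
Nppb, chr5:163699758-163699954, plus strand: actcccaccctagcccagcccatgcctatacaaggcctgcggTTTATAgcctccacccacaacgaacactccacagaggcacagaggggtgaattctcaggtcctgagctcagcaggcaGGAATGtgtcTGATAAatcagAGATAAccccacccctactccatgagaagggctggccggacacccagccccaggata

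The Nppa stretch of 250 bases ends at the start site. The Nppb stretch of 197 bases ends 53 bases short of the start site used by the table, where an upstream transcript model begins. In windows of 300 bases around the start, both genes held TGATAA once, as did 9.03% of 33469 rat windows, and both held TATAAA once on one of the strands (14.22% of windows). Nppb also held AGATAA (11.58%) and CATTCC (14.19%), which Nppa did not, and TNAAGTG (11.47%) was in neither. The windows of Npr1 and Npr3 held none of these 5 motifs, and Npr1 held the GC box GGGCGG once, as did 33.06% of windows. A match describes these letters and shows no binding.

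On all 6 arrays the peptide genes were among the brightest probe sets, and the receptor genes were in the middle or lower range. Ranks run from the highest signal, which is rank 1 of 8740, and they order signals and not transcript levels, since probe sets bind with different efficiency. The brightest Nppa probe set, E00903cds_s_at, ranked 7, 8 and 12 on the control arrays and 9, 10 and 12 on the PTX arrays. X01118_at ranked between 15 and 24, E00775cds_s_at between 18 and 38 and E00698cds_s_at between 21 and 43. Nppb ranked 76, 69 and 32 in the controls and 66, 56 and 67 with PTX, so that all 5 peptide probe sets stayed in the brightest 1% of each array.

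The receptors ranked far below. Npr2 lay between rank 2257 and 3251, which is 25.8% to 37.2% of the way down the array. The Npr1 probe sets J05677mRNA_s_at, S82229_s_at and S80456_s_at lay at 30.4% to 40.7%, 32.4% to 42.3% and 41.2% to 51.5%. Of the Npr3 probe sets, rc_AA945907_at lay at 39.98% to 49.2% and S79624_at at 55.4% to 72.4%, the lowest position of any member.

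**Figure D1:**
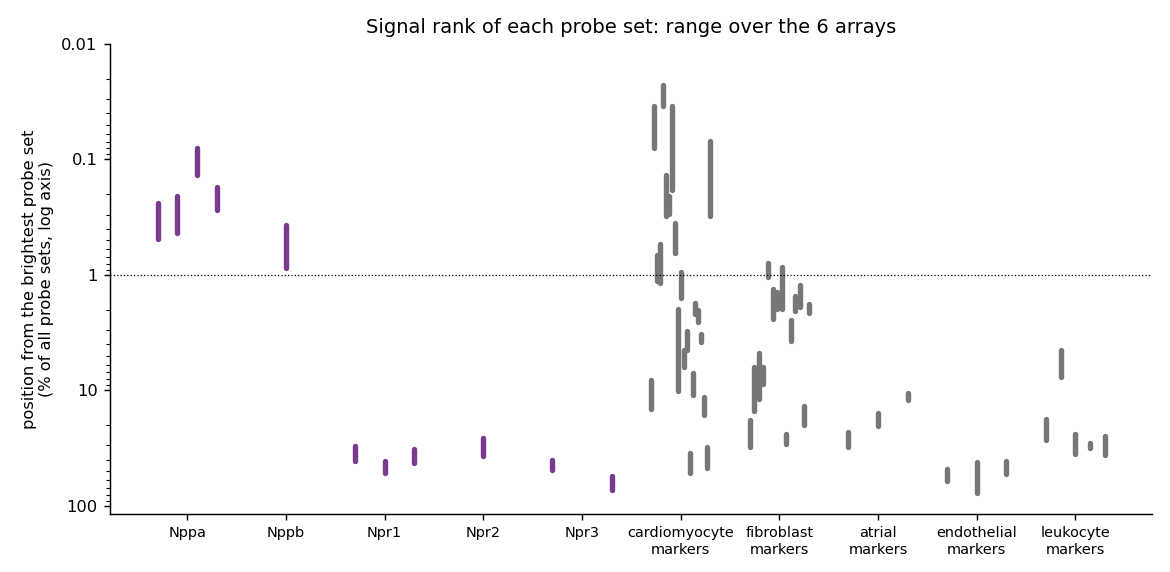
Range over the 6 arrays of the position of each probe set, in percent of the 8740 probe sets counted from the brightest (log axis; the dotted line marks 1%). Each bar is 1 probe set; grey bars are marker genes, each by its brightest probe set that passed the filter on low signals, and the Nppa and Nppb bars lie above the 1% line together with 7 cardiomyocyte markers.

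Markers of the cells that the cultures could hold place these ranks. Of the 23 cardiomyocyte markers on the array, 7 were in the brightest 1% on all 6 arrays: Myl2, Myl3, Myh6, Myh7, Actc1, Tnnt2 and Tpm1, genes of the sarcomere. Of these, Tpm1 is also expressed outside striated muscle. A further 7 were in the brightest 5%, and Ryr2 and Ttn were in the lower 50% of every array. Of the 14 fibroblast markers on the array, 8 were in the brightest 5% on every array, with Col3a1, a fibrillar collagen, the brightest, and none was in the lower 50%. The labelled cell type was thus present by its markers, beside strong signals of muscle genes. None of the 23 cardiomyocyte markers was listed at a signal of 0, but neither was any endothelial or leukocyte marker, so this shows no presence.

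The summed signal of the cardiomyocyte markers was 422701, 340119 and 328143 on the control arrays and 326368, 321135 and 290422 on the PTX arrays. Every PTX array lay below every control array, but the lowest control and the highest PTX array were almost equal. Control replicate 1 stood well above the other arrays. Bright probe sets of other genes were lower as well. The brightest 1% held 68 that are neither members nor cardiomyocyte or fetal heart genes. Their median log2 change was -0.20, and in 35.3% of them all PTX arrays lay below all controls. The median of the tested cardiomyocyte markers, -0.16, was -0.05 after quantile normalization and -0.04 after cyclic loess. The summed signal of the 14 fibroblast markers was 110096 to 128761 and 111442 to 115773, with overlapping groups. Whether the lower cardiomyocyte marker sum reflects myocyte RNA at all was not tested. Fewer myocytes and less RNA per myocyte cannot be told apart in such cultures either. The part of myocyte RNA in the peptide signals was not tested. The atrial myosin light chains Myl7 and Myl4 had mean control signals of 1226 and 631 and reached position 10.6% and 15.6% at best. Endothelial cells are another known site of Npr1. Of the 5 endothelial markers on the array Pecam1 and Vwf were in the lower 50% everywhere, and the summed signal of the 5 was 177 to 333 in the controls and 165 to 263 with PTX. The 8 leukocyte markers on the array summed to 3477 to 3532 in the controls and 4227 to 5388 with PTX. Those sums did not overlap, but much of each was Lyz2 alone. Lyz2 had 2138.6, 2516.8 and 2486.5 in the controls and 3276.3, 4149.7 and 2908.4 with PTX. Of the 5 tested, 3 were positive and 2 negative, so the sum gives no direction for the list. Csf1r, Ptprc and Cd74 were in the lower 50% everywhere. The part of endothelial cells and leukocytes in the member signals was not tested.

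No member passed the test between PTX and water. Signals were compared as log2(signal + 16) with limma over the 5244 probe sets whose mean was above the 40th percentile. Of the 11 member probe sets 10 were tested. Of these 10, 9 had negative and 1 a positive log2 change, and their median was -0.28 against -0.02 over all probe sets tested, of which 52.9% were negative. The limma adjusted p of the members lay between 0.366 and 0.804, and 0 of 10 passed 0.05; of all probe sets tested 0% were called lower and 0.0763% higher. At an unadjusted p under 0.05 there were 3 lower members, all of Nppa, against 4.61% of all probe sets.

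Nppa had lower mean signals with PTX on all 4 of its probe sets. Probe sets whose names end in _s_at can match more than 1 transcript. E00775cds_s_at had 35598, 30048 and 25967 in the controls and 25958, 22019 and 22355 with PTX. The groups did not overlap, but the lowest control and the highest PTX array were almost equal. The means were 30537 ± 4834 and 23444 ± 2184 (SD, n = 3 each). The log2 change was -0.37 ± 0.14 (SE; limma adjusted p = 0.366), with a 95% interval of -0.70 to -0.05 before adjustment.

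X01118_at had 32757, 29268 and 28973 in the controls and 26262, 25315 and 24093 with PTX. Here the arrays of each group lay close together and apart from the other group, with means of 30332 ± 2105 and 25223 ± 1088 (SD, n = 3 each). The change was -0.26 ± 0.10 (SE; limma adjusted p = 0.366).

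E00698cds_s_at had 27757, 29155 and 25927 in the controls against 23811, 23925 and 19677 with PTX. PTX replicate 3 was the lowest array and the groups did not overlap, with means of 27613 ± 1619 and 22471 ± 2421 (SD, n = 3 each). The change was -0.30 ± 0.12 (SE; limma adjusted p = 0.371).

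E00903cds_s_at, the brightest, had 46660, 33594 and 30515 in the controls and 30036, 30708 and 26697 with PTX. Control replicate 1 stood well above the other 5 arrays, and the groups overlapped because PTX replicate 2 exceeded control replicate 3. The means were 36923 ± 8572 and 29147 ± 2148 (SD, n = 3 each). The change was -0.32 ± 0.17 (SE; limma adjusted p = 0.449). Without control replicate 1 it was -0.14, that of E00775cds_s_at -0.26, that of X01118_at -0.21 and that of E00698cds_s_at -0.30. The 4 probe sets read the same transcript in the same 6 RNA samples, so they are no independent observations of the toxin.

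Nppb had signals of 22093, 19859 and 23878 in the controls and 18744, 20373 and 17326 with PTX. The groups, with means of 21943 ± 2014 and 18814 ± 1525 (SD, n = 3 each), overlapped because PTX replicate 2 exceeded control replicate 2. The log2 change was -0.22 ± 0.12 (SE; limma adjusted p = 0.450), with a 95% interval of -0.49 to 0.05, and -0.21 without control replicate 1. The Nppb probe set, rc_AA799498_at, belongs to a class of 375 tested probe sets with the name prefix rc_AA799 or rc_AA800. Of that class 11.2% were negative, and its median change was 0.56, or 0.27 without control replicate 1. On control replicate 1 the Nppb signal lay between its other control values.

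**Figure D2:**
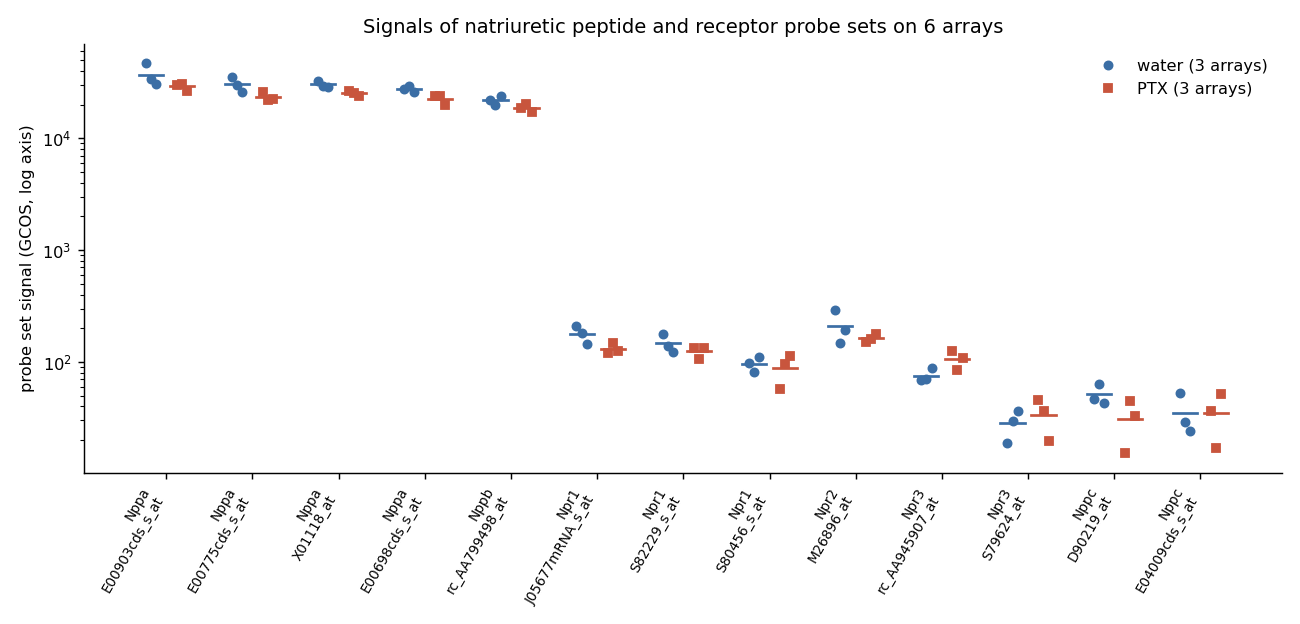
Signals (log axis) of the 11 member probe sets and of 2 probe sets of Nppc on the 3 water arrays (circles) and 3 PTX arrays (squares); horizontal lines are group means. The 5 peptide probe sets sit between 17326 and 46660 and every receptor signal is under 300.

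Npr1, the cyclase receptor for both cardiac peptides, had lower mean signals with PTX on its 3 probe sets, and the groups overlapped on each. J05677mRNA_s_at had 209.6, 179.9 and 143.4 in the controls and 119.3, 146.4 and 124.5 with PTX. Control replicate 3 lay under PTX replicate 2, and the means were 178 ± 33.2 and 130.1 ± 14.4 (SD, n = 3 each). Its change of -0.40 ± 0.18 (SE; limma adjusted p = 0.420) was the lowest of any member. S82229_s_at had 178.4, 139.2 and 122.8 against 133.6, 106.2 and 134.3, a change of -0.20 (limma adjusted p = 0.640). S80456_s_at had 97.9, 80.6 and 110.6 against 57.7, 94.8 and 111.7, a change of -0.14 (limma adjusted p = 0.804). On this probe set PTX replicate 3 was the highest of all 6 arrays, and without PTX replicate 1 the change was 0.09. Without control replicate 1 the 3 changes were -0.28, -0.07 and -0.13.

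Npr2, the receptor for C-type natriuretic peptide, had 292.7, 149.0 and 190.9 in the controls and 151.3, 159.4 and 176.6 with PTX. Control replicate 1 was the highest array, and the other 2 controls lay below and above all 3 PTX arrays. The means were 211 ± 73.9 and 162 ± 12.9 (SD, n = 3 each). The change of -0.30 ± 0.24 (SE; limma adjusted p = 0.578) was -0.05 without control replicate 1.

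Npr3, the clearance receptor, was the member with a positive change. On rc_AA945907_at it had 68.3, 69.7 and 87.3 in the controls and 124.4, 84.7 and 107.9 with PTX. Of the 3 PTX arrays 2 lay above all controls and PTX replicate 2 was just under control replicate 3. The means were 75.1 ± 10.6 and 106 ± 19.9 (SD, n = 3 each). The change was 0.41 ± 0.20 (SE; limma adjusted p = 0.439), with a 95% interval of -0.06 to 0.88, and 0.36 without control replicate 1. The other probe set, S79624_at, had 19.0, 29.5 and 36.4 against 45.6, 36.0 and 19.7. It lay below the filter with overlapping groups and was not tested.

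Over the members, 3 of 10 tested probe sets had all PTX arrays below all controls, against 10.6% of all probe sets, and 0 of 10 had all PTX arrays above, against 12%. The 3 are probe sets of 1 gene. Lower signals with PTX were also common among bright probe sets, a set looked at after the data were seen. Of the 88 tested probe sets in the brightest 1% by mean signal, 90.9% had a negative change, with a median of -0.21, and in 37.5% of them all PTX arrays lay below all controls. With the members and the cardiomyocyte and fetal heart genes left out, the other 68 had a median of -0.20 and 35.3%. The changes of Nppa, -0.26 to -0.37, and Nppb, -0.22, stand beside that median.

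**Figure D3:**
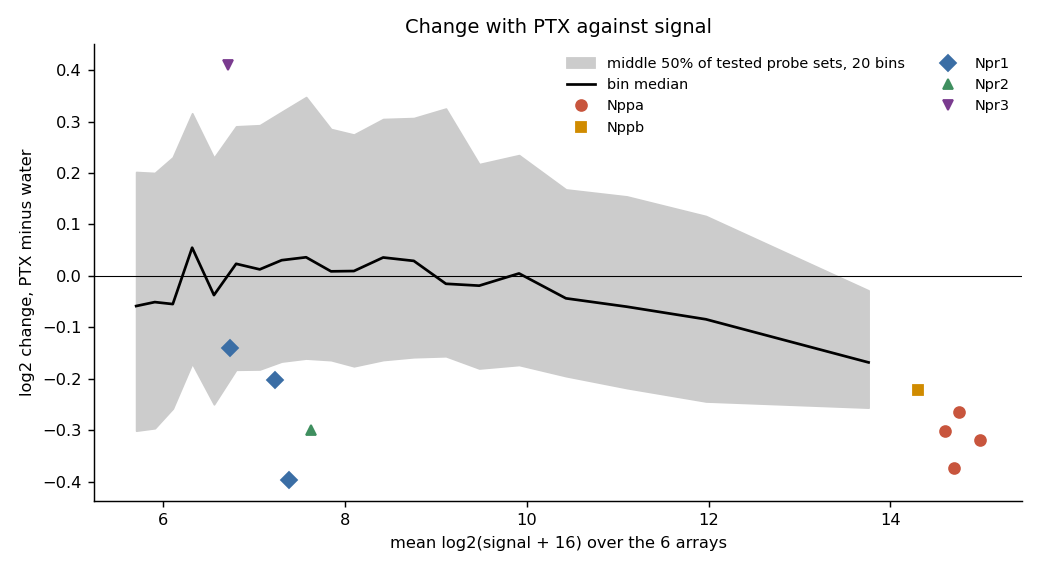
Log2 change with PTX against mean log2(signal + 16) over the 6 arrays. The line and the band give the median and the middle 50% of the tested probe sets in 20 bins of 262 or 263. The bin of the brightest has a median of -0.17, and Nppa (circles) and Nppb (square) lie below that value, to the right of where the band ends. Npr3 (downward triangle) lies above the band. Npr2 (upward triangle) and Npr1 J05677mRNA_s_at and S82229_s_at (diamonds) lie below it, and Npr1 S80456_s_at lies within it.

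Quantile and cyclic loess normalization moved the peptide genes and the bright probe sets together. Common median scaling hardly moved either: the median of the 88 brightest was -0.21 and Nppb had -0.22. With quantile normalization the median of those 88 probe sets was -0.02, the 4 Nppa probe sets had -0.08 to -0.18 and Nppb -0.05. With cyclic loess the median was -0.05, Nppa had -0.09 to -0.20 and Nppb -0.07. The receptors kept their signs: after quantile normalization Npr1 J05677mRNA_s_at had -0.48, Npr2 -0.38 and Npr3 0.37. No setting turned the sign of Nppa or Nppb. No member passed at any of the 17 other settings, the smallest adjusted p being 0.165, for Nppa E00775cds_s_at without control replicate 3.

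**Figure D4:**
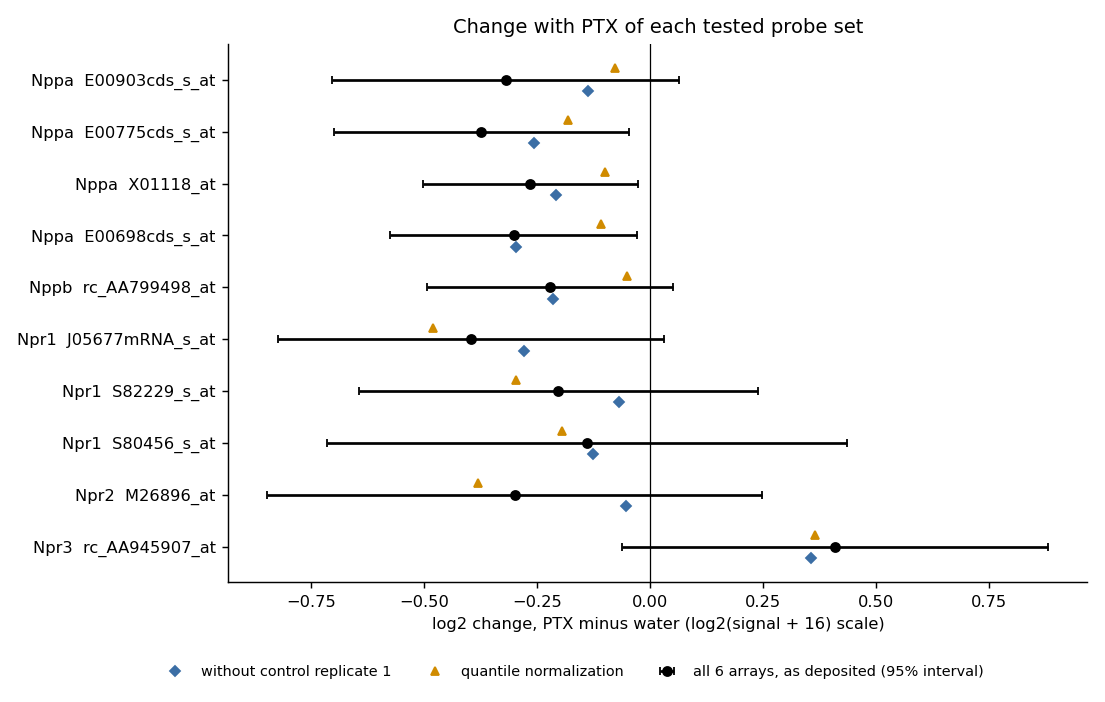
Log2 change with PTX of the 10 tested probe sets: black points with 95% intervals for all 6 arrays as deposited, diamonds without control replicate 1, triangles after quantile normalization. The Nppa and Nppb triangles lie nearer to 0 than the black points, those of Npr1 and Npr2 lie farther from 0, and the interval reaches past 0 for each receptor.

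The peptide genes were also set against the cardiomyocyte markers on the same array, as the log2 value minus the mean log2 value of 21 tested markers. For Nppa X01118_at this was 2.12, 1.98 and 2.04 in the controls and 1.83, 1.86 and 1.89 with PTX. The difference of -0.19 did not overlap between groups, nor did that of E00698cds_s_at (-0.22) and E00775cds_s_at (-0.29), each with an exact two-sided permutation p of 0.1, the smallest that 3 against 3 arrays allow. E00903cds_s_at had -0.24 and Nppb -0.14, both with overlapping groups (exact permutation p = 0.2 each). Without control replicate 1 E00903cds_s_at had -0.08 and E00775cds_s_at -0.20, and without control replicate 3 Nppb had -0.05. Set against the median of the markers in place of their mean, E00698cds_s_at had -0.12, E00775cds_s_at -0.20, X01118_at -0.09, E00903cds_s_at -0.14 and Nppb -0.04. The 21 markers include Actn2 and Ldb3, read by probe sets of the rc_AA799 or rc_AA800 class, with changes of 1.02 (0.10 without control replicate 1) and 0.62 (0.33). These values compare differences and give no level. How often other bright probe sets were apart on this scale was not computed, so whether the separation is particular to Nppa was not tested. Before the markers were subtracted, the 68 other bright probe sets had a median of -0.20. After quantile normalization, relative to the markers, E00698cds_s_at had -0.13, E00775cds_s_at -0.20, X01118_at -0.12, E00903cds_s_at -0.09 and Nppb -0.07.

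A list of heart genes that shift between the fetal and the adult ventricle was read next. It holds Acta1, Myh7 and Ankrd1, which accompany Nppa and Nppb in the fetal programme, and Myh6 and Atp2a2, which in rodents belong to the adult side. All 5 were negative with a median of -0.25, and 0 passed the adjusted test. The median was -0.13 without control replicate 1, -0.06 after quantile normalization and -0.08 after cyclic loess. Acta1, skeletal alpha-actin, had 7456, 7279 and 6513 in the controls and 5485, 5313 and 5711 with PTX (-0.36, limma adjusted p = 0.303). Myh7, the beta myosin heavy chain, had -0.39 (-0.21 without control replicate 1, and -0.09 on another probe set) and Ankrd1, a stress-responsive muscle protein, -0.25 (-0.13), both with groups that did not overlap. Myh6, the alpha heavy chain, had -0.14 (-0.07 without control replicate 1), and -1.09 and -0.03 on its other tested probe sets. Atp2a2, the calcium pump of the sarcoplasmic reticulum, had -0.04, 0.16 without that array, and 0.25 and 0.20 on its other probe sets. Of the 21 tested cardiomyocyte markers 16 were negative with a median of -0.16, or -0.09 without control replicate 1, and 0 passed. Tnni3, cardiac troponin I, had -0.28 (-0.19 without that array), Cox6a2, a muscle subunit of cytochrome oxidase, -0.33 (-0.16), and Myl2, the brightest, -0.27 (-0.04). Ldb3, a Z-disc protein gene, went the other way with 0.62 on an rc_AA799 or rc_AA800 probe set (0.33 without that array).

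Genes of peptide processing and clearance came next. Of 8 on the array 7 were tested, 3 positive and 4 negative, with a median of -0.17, which is the value of Mme, and 0 passed. That median gives no direction: it was 0.19 with the filter at the 60th percentile, -0.06 with no filter, -0.05 with a pseudocount of 1 and -0.04 without control replicate 3. Furin, a protease that cleaves prohormones including that of brain natriuretic peptide, had 1479, 1183 and 1892 in the controls and 2107, 2112 and 2261 with PTX. All PTX arrays were above the controls, and the change was 0.53 ± 0.18 (SE; limma adjusted p = 0.324). A second Furin probe set had -0.02 with overlapping groups. Pcsk6, a related convertase, had 944.5, 847.9 and 803.5 against 693.1, 689.6 and 750.9. Its groups did not overlap (-0.28, limma adjusted p = 0.426), and a second probe set had -0.51. Pcsk5, another convertase, had -0.45 at mean signals of 57.2 and 38.8. Pam, which amidates peptides, was the brightest of the list with 0.17. Another Pam probe set had -0.03. A further one, of the rc_AA799 or rc_AA800 class, had 1.15 with all PTX arrays above the controls (limma adjusted p = 0.0635).

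Of the enzymes that degrade natriuretic peptides, Ide had 0.22 and Mme, neprilysin, -0.17 (-0.76 without control replicate 1) at signals of 7.2 to 83.1. The Mme arrays spread so widely among the controls, with the lowest and the highest signal both there, that no direction can be read. Nppc, which encodes C-type natriuretic peptide, the ligand of Npr2, had 46.9, 63.9 and 42.7 against 15.3, 44.7 and 32.6 on D90219_at (-0.56, limma adjusted p = 0.462). Its other probe set had -0.03. Both lay in the lower 50% of every array.

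Downstream of the receptors, 16 genes of cyclic GMP synthesis and action were on the array and 8 were tested, 1 positive and 7 negative, with 0 passing and a median of -0.11 (0.01 without control replicate 1). Gucy1b1 and Gucy1a1 encode the subunits of the soluble guanylyl cyclase that nitric oxide activates. Gucy1b1 had 256.9, 439.2 and 412.1 in the controls and 309.3, 224.0 and 301.6 with PTX. Control replicate 1 was the lowest control, so that the change of -0.37 was -0.60 without it (limma adjusted p = 0.498 with all arrays). Gucy1a1 had -0.17, or -0.35 without it. Gucy2e, another guanylyl cyclase, had 0.43 at mean signals of 35.9 and 52.5. Pde3b, a phosphodiesterase that cyclic GMP inhibits, had -0.17 (-0.04 without it), and Pde2a, one that it stimulates, -0.11.

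Among 9 measured transcription factors that act on the peptide promoters 8 were tested, 5 positive and 3 negative, with 0 passing and a median of 0.06, which was -0.03 without control replicate 3 and -0.01 without control replicate 2. Gata4, which binds the GATA motif marked above, had 1604, 1156 and 1367 in the controls and 1316, 1282 and 1263 with PTX (-0.08, or 0.03 without control replicate 1). Gata6 had -0.07 (0.12 without that array) and Nkx2-5 0.05 (0.26), all 3 with overlapping groups. Fos, a subunit of AP-1, had 362.6, 279.4 and 267.1 against 185.6, 255.0 and 241.9, so that every PTX array was the lower (-0.39, limma adjusted p = 0.428), and its partner Jun had 0.15 with every PTX array the higher. The other 3 Jun probe sets had -0.04, -0.14 and 0.03 with overlapping groups. The other 2 Fos probe sets had -0.29 and -0.34 with overlapping groups. Egr1, the brightest of these factors, had 0.07, and 0.22, -0.48 and -0.22 on its other tested probe sets, with overlapping groups. Hand2 had 0.25 and Mef2d 0.19.

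Markers of other cells were read beside these. The 14 fibroblast markers were split evenly, 7 positive and 7 negative, with a median of -0.0027 and 0 passing. Thy1, a fibroblast surface protein, had the smallest p with -0.97 (limma adjusted p = 0.0743). Lum, Postn and Pdgfra had 1.10, 1.07 and 0.36, and Col3a1 had -0.22. Without control replicate 1 these were -0.95 for Thy1, 0.74 for Lum, 0.79 for Postn, 0.29 for Pdgfra and -0.15 for Col3a1. In the leukocyte list, 3 of 5 tested were positive and 0 passed. Fcgr2b, an Fc receptor, had 0.88 (limma adjusted p = 0.0876), Lyz2, lysozyme, 0.52, Cd14, a lipopolysaccharide receptor, 0.15, and C1qb, a complement subunit, -0.39 (-0.23 without that array). The atrial gap junction gene Gja5 had 0.41 on its brightest probe set and -0.43 on another, Myl7 had 0.12 and Myl4 -0.19 (-0.07 without that array), with 0 of 3 passing. None of the 6 smooth muscle or 3 endothelial markers tested passed, among them Pdgfrb (-0.29) and Nos3 (-0.17). Without control replicate 1 Tagln moved from -0.35 to -0.19, Acta2 from 0.59 to 0.03, Cspg4 from -0.23 to -0.14, Flt1 from -0.20 to -0.09 and Kdr from -0.04 to 0.10.

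Likeness across arrays was measured as the root mean square difference between log2 values centred on their own mean over the 6 arrays. Between Nppa probe sets it was 0.095 to 0.180. The Nppb probe set differed by 0.112 from Nppa X01118_at and by 0.140 to 0.219 from the other 3. Npr3 rc_AA945907_at differed by 0.373 or more from every other tested member. Among all other named genes the nearest to X01118_at were Tsc22d1 (0.023), C1qbp (0.034) and Kxd1 (0.035), and to E00775cds_s_at Hadha (0.033), Txnrd2 (0.034) and Psmb3 (0.035). Nearest to E00903cds_s_at were Mif (0.033), Bgn (0.037) and Cav3 (0.038), and to E00698cds_s_at Gstk1 (0.037), Inhba (0.051) and Atp5po (0.055). Nppb was nearest to Lman1 (0.057), Mras (0.061) and Ccdc88c (0.066). For Npr1 the nearest were Zfp180 (0.035), Pomp (0.064) and Ndufb6 (0.066) to J05677mRNA_s_at, Akt2 (0.043), Ece1 (0.045) and Bcl2l1 (0.054) to S82229_s_at, and Synpo (0.071), Cyp2a1 (0.085) and Hsph1 (0.089) to S80456_s_at. Npr2 was nearest to Adra1d (0.074), Plcl1 (0.078) and Pcyt2 (0.082), and Npr3 to Hdac6 (0.061), Ncoa4 (0.082) and Snf8 (0.085). With 6 arrays such near neighbours are a description.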

How the data were processed

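The authors deposited linear probe set intensity values, 1 column per array for 8740 probe sets, made with GCOS per the submitters' processing notes. A GCOS version, a scaling target or detection calls were not given in the sources used here. For the 6 arrays the 2% trimmed means were 493 to 495 and the medians 63.1 to 68.85, so no further scaling was applied, and no 2 arrays held identical values. Control replicate 1 correlated with the others at 0.952 to 0.960, and those 5 among themselves at 0.978 to 0.985.

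Of the probe sets 7006 had 1 gene symbol, 308 several and 1426 none; 6985 symbols were updated or kept through Entrez identifiers with RefSeq's GRCr8 table. Signals were tested as log2(signal + 16), so that changes of low signals are understated, after leaving out means under the 40th percentile, with limma 3.58.1 in R 4.3.3 (eBayes with an intensity trend, two-sided, Benjamini-Hochberg over 5244 probe sets, threshold 0.05). The fit was tested on simulated data. The array number limits the precision. Intervals are 95%, before adjustment.

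A gene in a list stands for its probe set with the highest mean. Named list genes are the 4 with the smallest p and the brightest of each list, and the 3 nearest genes by likeness for each member. Ide, Mme, Pde2a, Gata4, Gata6, Nkx2-5, Atp2a2, Actn2 and the markers named by rank were added after their values were seen. The members and lists were chosen with earlier results of these data known. Promoter windows come from RefSeq with the GRCr8 build, for 4 of the 5 members. Alternatives were a pseudocount of 1 or 64, testing all probe sets or those above the 60th percentile, 3 scalings, a replicate block, 3 variance or weight settings and each array left out.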

Additional observations from a re-analysis of the deposited data

How the results depend on the processing

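Over 17 alternatives (16 for Npr3 rc_AA945907_at and Npr1 S80456_s_at, which a 60th percentile filter removes, as it does all endothelial markers) no member passed, and the sign held for all but Npr1 S80456_s_at, which ranged from -0.306 without PTX replicate 3 to 0.091 without PTX replicate 1. Over single arrays left out, E00698cds_s_at ranged from -0.35 to -0.21, E00775cds_s_at from -0.48 to -0.26, E00903cds_s_at from -0.44 to -0.14, X01118_at from -0.30 to -0.21, Npr1 J05677mRNA_s_at from -0.53 to -0.28, S82229_s_at from -0.31 to -0.07, Nppb from -0.29 to -0.16, Npr2 from -0.50 to -0.05 and Npr3 from 0.30 to 0.54. Relative to the cardiomyocyte markers, Npr2 ranged from -0.43 to 0.0074 (without control replicate 1) and S80456_s_at from -0.27 to 0.22 over single arrays left out, with 0.06 without control replicate 3, and S80456_s_at had 0.038 against the markers' median; the cause was not tested.

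The number of probe sets called higher, 4 with all arrays, was 2 with a pseudocount of 1 or with quantile normalization, 7 with a pseudocount of 64, 9 with robust variances, 0 without a trend and 66 with array quality weights, where 15 were lower. Leaving out single arrays gave 0 to 97 higher and 0 to 18 lower, the maximum of both without control replicate 1; 30 were higher without control replicate 3 and 0 without PTX replicate 1, 2 or 3. With array quality weights 2 fibroblast and 1 leukocyte markers passed, and 0 to 2 and 0 to 1 with single arrays left out. The replicate number as a replicate block left 0 higher calls and no member call (limma adjusted p of 0.403 for Nppa E00775cds_s_at to 0.823). Over all probe sets, the deviations of same-numbered arrays from their group means correlated at -0.05, -0.05 and 0.01. With so few arrays these values cannot show whether same-numbered cultures were isolated together. Ranked among probe sets with 1 symbol alone, mean positions on PTX arrays were 0.276%, 0.238%, 0.081% and 0.171% for Nppa (E00698cds_s_at, E00775cds_s_at, E00903cds_s_at, X01118_at), 0.523% for Nppb, 41.9% and 42.7% for Npr1 J05677mRNA_s_at and S82229_s_at and 38.2% for Npr2, and on control arrays 0.171% and 0.162% for Nppa E00775cds_s_at and X01118_at and 50.4% for Npr3. The number of arrays, and for Npr3 and Nppc a signal near the filter, limit what can be seen.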
